A study of Mus musculus with 3 samples.

Results

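Among nephron progenitors sorted from the fetal mouse kidney, 298 cells that were rich in transcripts of Stc1, Colec12, Efemp1 and Dcx are described here, out of 7924 cells deposited. They were chosen by the measured counts of these 4 genes. Within each library, cells with at least 1000 detected genes, at most 10% mitochondrial transcripts, at least 1 Six2 count and no count of Wnt4, Pax8 or Fgf8 were ranked by the summed count of the 4 genes over all counts of the cell, and the top 10% were taken. These conditions, called the gate below, kept 2993 cells (1017, 1095 and 881 in libraries 1, 2 and 3), of which 101, 109 and 88 were rich cells. The rich cells were set against the lowest 50% of the same ranking, 508, 547 and 440 cells, and the 1200 cells between stayed out of the main comparison. No rich cell had a barcode that occurred in another library, as 22 of the 7924 barcodes did.

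All cells came from untreated Six2GFP+ embryos, which carry green fluorescent protein under the control of Six2, at E14.5 of gestation. Each of 3 tubes held the pooled kidneys of more than 1 litter, so no animal can be followed. Live GFP-positive single cells were sorted from each and run side by side on a 10x Chromium chip (version 2 chemistry), which counts transcripts as unique molecular identifiers (UMIs). The 3 libraries form 1 group, and every comparison below lies within a library, between cells that share genotype, age, sort and run.

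Nephron progenitors are mesenchymal cells that cap the tips of the branching ureteric tree. They renew themselves or commit, under Wnt signals, to an epithelial vesicle that forms a nephron. Six2 holds them undifferentiated, while Fgf8, Pax8 and Wnt4 come on with commitment, so the gate holds progenitors in which no commitment transcript of these 3 was counted. Progenitors are known to differ in place and cycling rate, and slowly cycling ones lie closer to the self-renewing state.

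The 4 genes encode unlike proteins. Stc1 (chromosome 14, 69029238 to 69041804, plus strand, GRCm38 with the GENCODE vM21 annotation) encodes stanniocalcin 1, a secreted glycoprotein hormone. Colec12 (chromosome 18, 9707595 to 9882644, plus strand) encodes a scavenger receptor of the collectin family. Efemp1 (chromosome 11, 28853204 to 28926743, plus strand) encodes fibulin-3, a glycoprotein of the extracellular matrix, and Dcx (chromosome X, 143855842 to 143933311, minus strand) encodes doublecortin, which binds microtubules in migrating neurons.

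Levels below are UMI counts scaled to a common total (CPM) of the summed cells of a library. Stc1 was at 369, 480 and 358 CPM in the rich cells of libraries 1, 2 and 3, against 12.8, 21.9 and 17.8 CPM in the lowest 50%. Colec12 was at 170.0, 273 and 189.5 CPM in rich cells, against 26.3, 41.4 and 33.4 CPM in the lowest 50%. The ranking itself made these gaps, and they carry no test. Efemp1 averaged 83.7 ± 18.5 CPM in rich cells and 7.77 ± 1.79 CPM in the lowest 50%, and Dcx 148 ± 5.77 CPM and 15.1 ± 1.68 CPM (SD, n = 3 libraries each). Six2, which only had to be counted once, was at 188 ± 46.2 CPM in rich cells and 155 ± 29.1 CPM in the lowest 50%.

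Rich cells differed in which of the 4 genes were counted. All 4 genes were counted in 84 of the 298 rich cells (28.2%), 3 of them in 147 cells, 2 in 61 and a single one in 6. Stc1 supplied 47.6% of the summed score UMIs, Colec12 24.8%, Dcx 17.7% and Efemp1 9.86%. Stc1 was the most counted of the 4 in 151 rich cells, Colec12 in 58, Dcx in 38 and Efemp1 in 11, and 40 cells had a tie. The score rested on a median of 9 UMIs per rich cell, with a range of 3 to 23, so the counting error of a single cell's score is large. Whether rich cells differed in these genes beyond counting error was not tested. The limit of the top 10% cut through a continuous range: the lowest rich cell stood at 536 CPM in library 1, 713 in library 2 and 580.1 in library 3, and the highest cell outside at 535, 712.9 and 579 CPM. The lowest 50% reached up to 147, 226 and 188 CPM, and 185, 172 and 123 of its cells had no UMI of any of the 4 genes.

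Outside the gate, the summed 4 genes were at 69.2, 108 and 68.1 CPM in Six2-positive cells with Wnt4, at 101, 157 and 115 CPM in those with Pax8 but neither Wnt4 nor Fgf8, and at 134, 197 and 149 CPM in those with Fgf8 but no Wnt4. Cells with no Six2 count, also outside the gate, were higher than these 3 classes, at 163, 226 and 185 CPM. Within the gate, the rich cells were at 758, 1005 and 772 CPM and the lowest 50% at 58.2, 88.6 and 75.4 CPM. The cells between were at 289, 402 and 336 CPM. The ranking on this sum set the value of each of these 3 groups, so none of them alone can be set against the classes outside the gate. The sum over the whole gate, which the ranking does not change, was not compared with those classes. There were 73 immune cells (3 or more of 10 immune markers counted), which should lack doublecortin and stanniocalcin. Of these, 2.74% had a Stc1 UMI and 1.37% a Dcx UMI, at a median of 9468 UMIs per cell. In the lowest 50%, which the ranking placed low on these genes, the shares were 21.5% and 19.8% at a median of 14697. In rich cells they were 90.9% and 72.5% at 11497, shares that the ranking itself raised. Colec12, a gene that macrophages also transcribe, was counted in 43.8% of these immune cells. It was counted in 38.4% of the lowest 50% and in 88.9% of rich cells, which were ranked on it.

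Each gene was then tested in cells ranked by the other 3. The 4 genes were picked together with results of these data known, so the test is no independent evidence that they go together. Cells rich in Colec12, Efemp1 and Dcx had 146, 184 and 156 CPM of Stc1, against 50.2, 71.4 and 50.1 CPM in the lowest 50% of that ranking. The 2 ranges did not overlap, and Stc1 was higher by 1.48 ± 0.08 on the log2 scale (standard error; edgeR's quasi-likelihood test with the library as a block, adjusted p = 3.49e-22, higher in 3 of 3 libraries). In such a ranking 8.94% of all genes tested were called higher. Colec12 was higher by 1.20 ± 0.08 (adjusted p = 2.15e-11, background 7.25%), at 121.6, 182 and 130.3 CPM in cells rich in the other 3, against 49.9, 76.7 and 60.8 CPM. Efemp1 was higher by 1.71 ± 0.15 (adjusted p = 9.98e-15, background 8.67%), at 43.4, 68.6 and 46.5 CPM against 12.2, 17.9 and 17.8 CPM. Dcx was higher by 1.55 ± 0.12 (adjusted p = 3.82e-15, background 8.26%), at 94.6, 79.0 and 88.2 CPM against 25.4, 33.0 and 30.3 CPM. For none of the 4 genes did the 2 groups of libraries overlap, and each was called under every alternative run for these rankings. The smallest differences came when the comparison cells of each ranking were matched on total UMIs, an alternative added after the values were seen. They were 0.82 ± 0.11 for Stc1 (adjusted p = 2.01e-06), 0.85 ± 0.11 for Colec12 (1.18e-11), 0.90 ± 0.18 for Efemp1 (5.47e-05) and 1.06 ± 0.15 for Dcx (1.10e-08), where 1.75% to 2.62% of all genes tested were called higher. Stc1 was at 63.5, 112 and 100.02 CPM in those matched cells of libraries 1, 2 and 3.

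**Figure D1:**
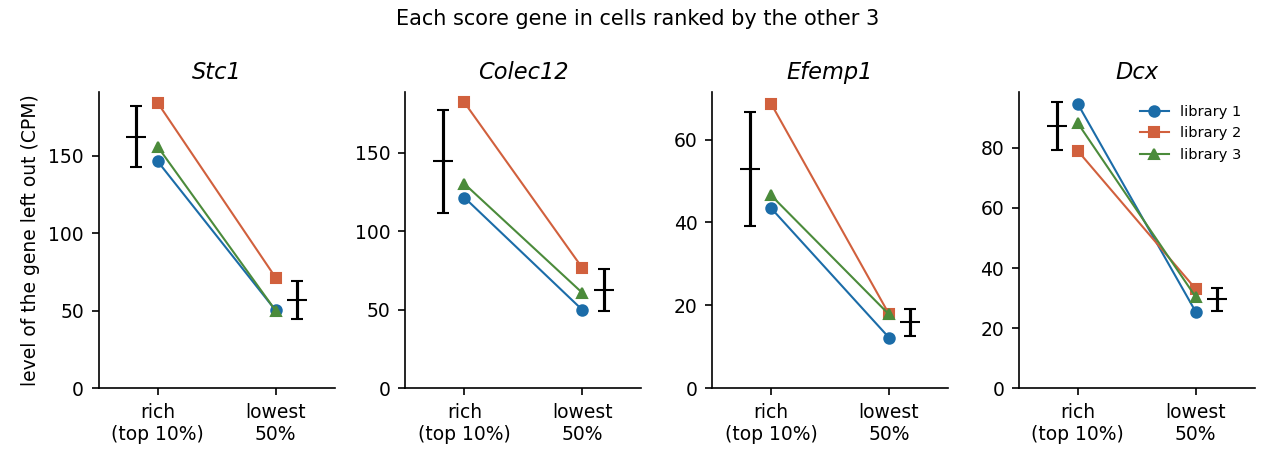
Level of each of the 4 genes (CPM, axis from 0) in cells ranked by the other 3 genes, for the top 10% (left) and the lowest 50% (right) of that ranking. Each line joins the 2 values of a library, and the bars give the mean and SD of 3 libraries. Every line falls to the right, and Stc1 stands between 146 and 184 CPM in the top 10%, above the 50.1 to 71.4 CPM of the lowest 50%.

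Rich cells were shallower than the cells they are set against, which bears on every result below. Their median was 12637, 9640 and 12643 UMIs per cell in libraries 1, 2 and 3, against 16235.5, 11906 and 16045 in the lowest 50%, with 3611, 3414 and 3755 genes against 4107.5, 3877 and 4242. The rule divides by all UMIs of a cell, so depth is part of it. A second comparison therefore set each rich cell against the cell of the lowest 50% of its library nearest in total UMIs, taken once, whose medians were 12599, 9600 and 12653 UMIs. Called "matched" below, it was added after the difference in depth was seen and uses 298 comparison cells. Ribosomal protein genes took like shares in both groups (25.7%, 13.4% and 21.8% of UMIs in rich cells, against 24.8%, 13.1% and 21.0%). Mitochondrial transcripts took 3.61%, 3.62% and 3.50% in rich cells, against 3.35%, 3.46% and 3.30% in the lowest 50%, and 3.66%, 3.59% and 3.39% in matched cells.

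**Figure D2:**
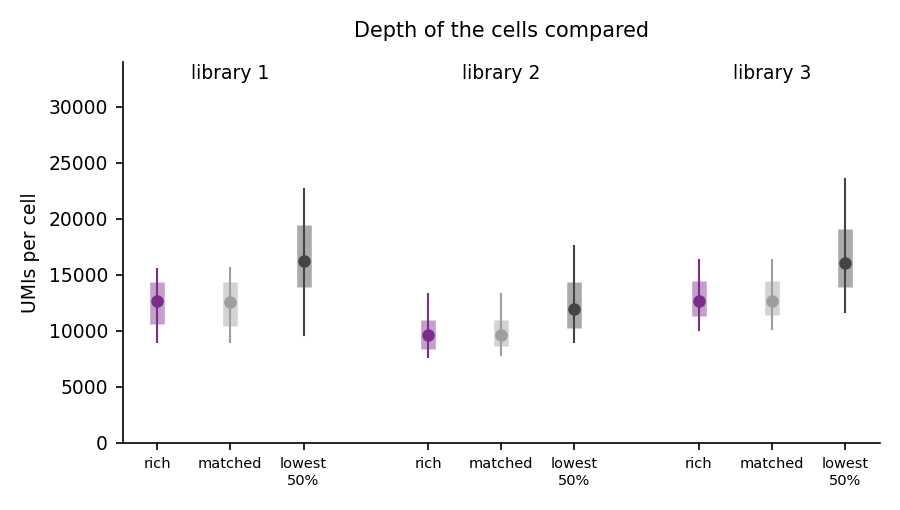
UMIs per cell in rich cells, in matched cells and in all of the lowest 50%, by library (axis from 0). Points are medians, thick bars the quartiles and thin lines the 10th to 90th percentile of cells. In library 1 the medians are 12637 in rich cells, 12599 in matched cells and 16235.5 in the lowest 50%.

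Of 11126 genes tested, without the 8 genes of the rule, 2274 (20.4%) passed an adjusted p of 0.05 in edgeR's quasi-likelihood test on UMI sums per library and group. There were 1016 (9.13%) higher and 1258 (11.3%) lower in rich cells, and 1902 genes (17.1%) had levels that did not overlap between the groups. The tubes are pools, so these p-values measure only how the difference varies over 3 tubes, which may be technical. In the matched comparison 402 of 8903 genes were called (4.52%), 196 higher (2.20%) and 206 lower (2.31%), and 384 of the 2075 earlier calls tested again were kept and 68 turned sign. Thinning the sums of the lowest 50% to the rich cells' totals, which keeps the difference in depth per cell, left 1307 calls. Without library 1 there were 1495 calls (608 higher), and without library 3 there were 1564 (650 higher). Every count within a gene list below stands beside the shares of all genes, 9.13% higher and 11.3% lower. Against matched cells those shares are 2.20% and 2.31%.

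The 12 largest increases held no gene of the progenitor marker or regulator lists used here. Itga4, which encodes the alpha 4 subunit of integrins that bind fibronectin and Vcam1, was at 37.3, 52.8 and 43.3 CPM in rich cells, against 6.32, 9.29 and 7.54 CPM in the lowest 50%. The libraries of the 2 groups were far apart, with a log2 difference of 2.50 ± 0.17 (adjusted p = 1.44e-20) and of 2.05 in the matched comparison. After thinning each cell to 5000 UMIs, 20.6% of 296 rich cells had an Itga4 UMI and 3.66% of 1475 cells of the lowest 50% (31.2% and 8.16% unthinned). In immune cells, which do carry this integrin, the unthinned share was 34.2%. Zeb2, a zinc finger repressor of E-cadherin, was at 88.2, 68.3 and 74.4 CPM in rich cells, against 19.5, 26.4 and 19.9 CPM in the lowest 50%. Its groups were likewise apart in all 3 libraries (1.81 ± 0.13, adjusted p = 8.20e-20, matched 1.14). Unthinned, a Zeb2 UMI was counted in 49.7% of rich cells, 23.3% of the lowest 50% and 79.5% of the immune cells.

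Several of the other leading genes are better known from other tissues. Tnnt2, cardiac troponin T, was at 34.95, 43.7 and 35.5 CPM in rich cells, against 7.75, 11.9 and 8.48 CPM in the lowest 50% (2.01 ± 0.18, adjusted p = 1.18e-15, matched 1.05). Nrsn1, a membrane protein of neuronal vesicles, was higher by 2.25 ± 0.22, and Dync1i1, an intermediate chain of cytoplasmic dynein, by 1.93 ± 0.23. Kcns3, a modulatory subunit of potassium channels, was higher by 1.88 ± 0.22, Epn3, an adaptor of endocytosis, by 1.69 ± 0.20, and the nuclear cytokine Il33 by 1.67 ± 0.20. Cpa1, a carboxypeptidase of the exocrine pancreas, was at 21.4, 26.4 and 24.2 CPM in rich cells, against 7.98, 10.6 and 6.06 CPM in the lowest 50% (1.53 ± 0.21, matched 1.57). C2cd4b (2.47 ± 0.19), Ccdc85a (2.02 ± 0.22) and Btbd17 (1.99 ± 0.22) complete the 12. C2cd4b was much lower in both groups of library 1, at 10.3, 59.2 and 49.3 CPM in rich cells and 2.15, 9.73 and 9.16 CPM in the lowest 50%. All 12 were called higher in the matched comparison and when any 1 library was left out, and Ccdc85a was not called in cells thinned to 5000 UMIs (1.09).

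**Figure D3:**
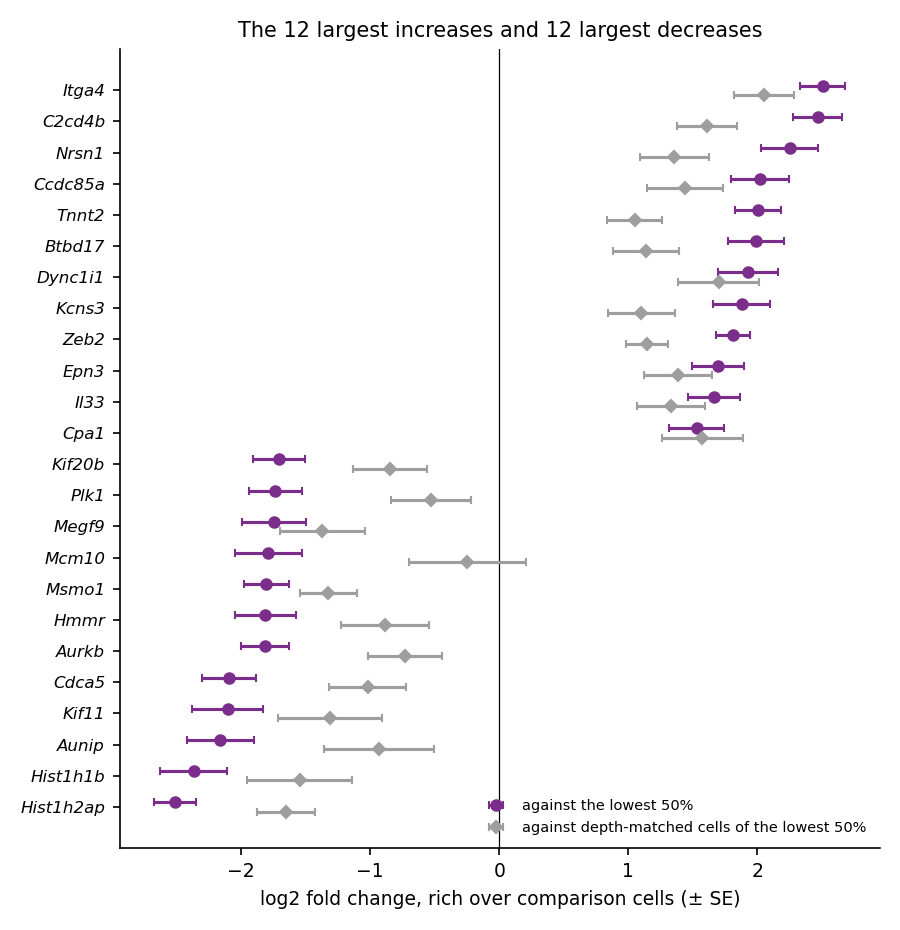
Log2 fold change (± SE) of the 12 largest increases and 12 largest decreases, rich cells over the lowest 50% (circles) and over matched cells (diamonds). Increases keep 1.05 or more against matched cells, while Mcm10 moves to -0.25 and Plk1 to -0.53.

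The cyclin-dependent kinase inhibitor Cdkn1c, which brings cells out of the cycle, was abundant and higher in rich cells. It was at 3127, 3932 and 3906 CPM in rich cells, 2221, 3075 and 2513 CPM in the middle 40% and 1383, 1930.0 and 1514 CPM in the lowest 50%. The order was the same in each library, and the log2 difference between rich cells and the lowest 50% was 1.17 ± 0.03 (adjusted p = 5.41e-47). It was 0.86 against matched cells. The gene is imprinted and counted here with the imprinted growth genes, of which 5 of 12 tested were higher and 4 lower. Mest averaged 2992 ± 489 CPM in rich cells and 2072 ± 408 CPM in the lowest 50% (0.52 ± 0.03) and Peg3 716 ± 66.2 CPM in rich cells and 474 ± 28.7 CPM in the lowest 50% (0.57 ± 0.04). On the lower side, H19, a growth-limiting long RNA, was at 265, 345 and 239.7 CPM in rich cells, against 499.8, 609 and 488 CPM in the lowest 50% (-0.93 ± 0.05, adjusted p = 7.25e-27, matched -0.73), and the growth factor Igf2 averaged 50.1 ± 7.69 CPM in rich cells and 78.9 ± 1.52 CPM in the lowest 50% (-0.68 ± 0.11).

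Transcripts of the cell cycle were lower in rich cells. Of 52 G2 and M phase genes, 48 were lower and 4 did not pass (median log2 difference -1.28), and of 44 S phase genes 41 were lower and 3 did not pass (median -0.75), where the median of all genes tested was 0.01. Summed, G2 and M phase genes took 0.228%, 0.375% and 0.291% of UMIs in rich cells, against 0.523%, 0.579% and 0.576% in the lowest 50%. The S phase genes took 0.334%, 0.452% and 0.362% in rich cells, against 0.530%, 0.629% and 0.560% in the lowest 50%. Every rich cell still had at least 1 UMI of these lists. Depth moved with this: in matched cells the S phase shares were 0.360%, 0.488% and 0.354%, and 2 of 43 S phase genes (median -0.08) and 12 of 50 G2 and M phase genes (median -0.45) were lower. In that comparison 1 G2 and M phase gene was called higher.

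Among the largest decreases, the mitotic kinesin Kif11 was at 3.18, 10.9 and 2.60 CPM in rich cells, against 23.1, 26.6 and 19.5 CPM in the lowest 50% (-2.11 ± 0.27, matched -1.31). The cohesion factor Cdca5 was at 7.15, 14.6 and 6.92 CPM, against 33.4, 45.01 and 41.3 CPM (-2.09 ± 0.21, matched -1.02). Both were still called against matched cells, as were the histone genes Hist1h2ap (-2.51 ± 0.16, matched -1.65) and Hist1h1b (-2.37 ± 0.26, matched -1.54). Histone genes have near-identical copies, and Hist1h2ap differed more between libraries than between groups, at 37.3, 1.82 and 3.46 CPM in rich cells and 212, 8.71 and 19.3 CPM in the lowest 50%. The mitotic kinase Aurkb (-1.82 ± 0.19, matched -0.73) and the polo kinase Plk1 (-1.74 ± 0.20, matched -0.53) were not called against matched cells. The same held for the spindle genes Hmmr (-0.88 matched) and Kif20b (-0.85), for Aunip (-0.93) and for the replication factor Mcm10 (-0.25). The other two largest decreases were not cycle genes: Msmo1, an enzyme of sterol synthesis, was at 15.1, 20.03 and 9.52 CPM in rich cells, against 44.9, 67.95 and 41.7 CPM in the lowest 50% (-1.81 ± 0.17, matched -1.32), and Megf9 fell by 1.74 ± 0.25 on the log2 scale (matched -1.37).

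A further comparison, also added after these values were seen, ranked anew only the 50% of gate cells with the lowest shares of cycle UMIs in their library. There 416 of 9707 genes were called (4.29%), 242 higher (2.49%) and 174 lower (1.79%), and all 12 largest increases were called again. Of 2089 earlier calls tested there 392 were kept and 105 turned sign. Itga4 was higher by 2.20 among these cells, Zeb2 by 1.59 and Cdkn1c by 0.93.

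**Figure D4:**
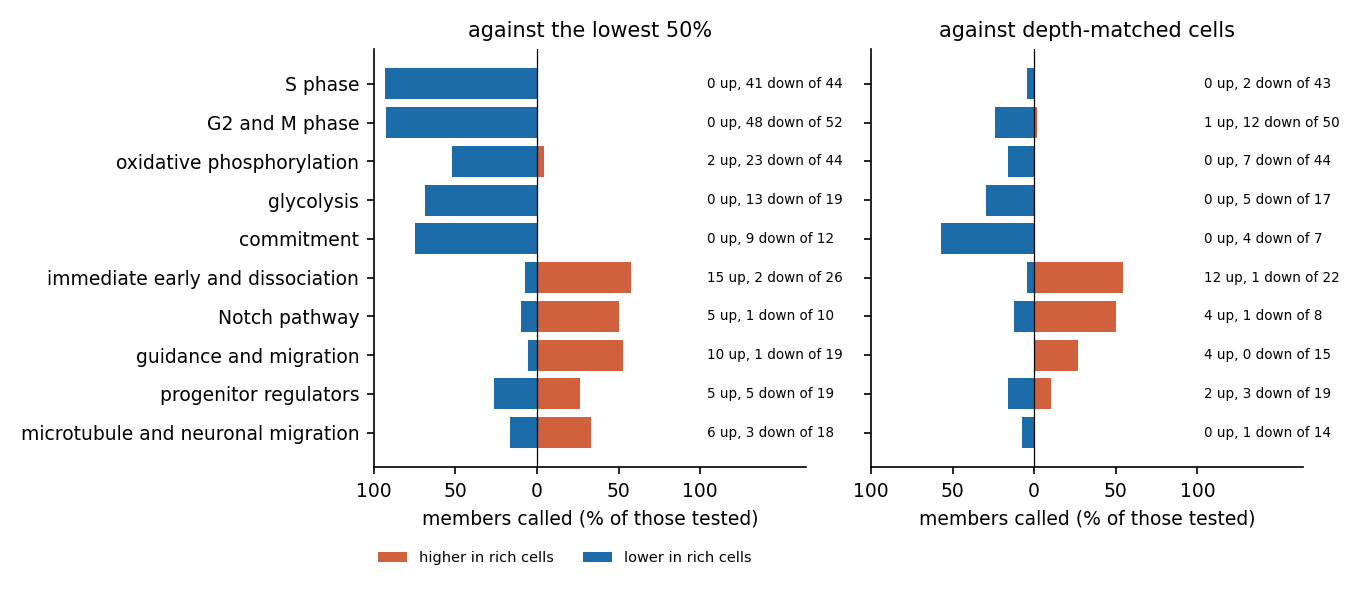
Share of the tested members of 10 gene lists called higher (right of 0) or lower (left of 0) in rich cells, against the lowest 50% (left) and against matched cells (right), with the counts printed. S phase goes to 2 of 43 lower against matched cells, while 12 of 22 immediate early genes are still higher.

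Genes of commitment other than those of the gate were lower in rich cells. Of 12 tested, 9 were lower and 3 did not pass (median -1.11), 6 without library 1, and 4 of 7 were lower against matched cells. This list and the next were drawn up with results of these libraries known, so their direction is no independent evidence. Id2, an inhibitor of helix-loop-helix factors, was at 149, 162 and 154 CPM in rich cells, against 244, 266 and 265 CPM in the lowest 50% (-0.75 ± 0.07, adjusted p = 9.29e-16, matched -0.47). The cyclin Ccnd1 was at 76.3, 71.002 and 86.5 CPM, against 121, 148 and 123 CPM (-0.76 ± 0.09, adjusted p = 5.03e-10, matched -0.54). Both genes stood below the lowest 50% in every library. Lmcd1, a LIM domain cofactor, was low in both groups, at 2.38, 3.64 and 1.73 CPM in rich cells and 9.53, 12.9 and 8.89 CPM in the lowest 50% (-2.03 ± 0.39). Tmem100 fell by 1.42 ± 0.39 on the log2 scale (adjusted p = 0.00442) but was not called without library 1 (-1.17, adjusted p = 0.071). The 4 secreted and surface genes known from these libraries to be lower at commitment were all higher. Pgf, a growth factor of the Vegf family, was at 143, 205 and 146 CPM in rich cells, against 70.7, 103 and 80.5 CPM (0.94 ± 0.08, matched 0.69), the iron exporter Slc40a1 was higher by 0.84 ± 0.15 and the fringe glycosyltransferase Lfng by 1.02 ± 0.17. Lfng was not called by edgeR when Stc1 was left out of the score (0.40, adjusted p = 0.147). Ifitm1, an interferon-induced membrane protein, was higher by 0.68 ± 0.09 and was not called against matched cells (0.34).

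The progenitor regulators did not move as a group: 5 of 19 were higher, 5 lower and the median was -0.08. Crym, a thyroid hormone binding protein and progenitor marker, was at 389, 518 and 424 CPM in rich cells, against 247, 358 and 297 CPM in the lowest 50% (0.55 ± 0.05, adjusted p = 4.60e-15, matched 0.43). Its libraries did not overlap between the groups. Bmp7, the bone morphogenetic protein that maintains progenitors, was at 209.7, 242 and 202 CPM, against 119, 169 and 133 CPM (0.62 ± 0.07, adjusted p = 1.07e-11, matched 0.56). Cited1, a transcriptional cofactor whose transcripts mark the least committed progenitors, was at 168, 209 and 189 CPM in rich cells and 161, 213 and 219 CPM in the lowest 50%. Its groups overlapped and it was not called (-0.08 ± 0.07, adjusted p = 0.445), nor was Wt1 (0.03 ± 0.05, adjusted p = 0.697). The patterning factor Hoxa11 fell by 0.69 ± 0.11 on the log2 scale (matched -0.60); of 27 Hox genes tested 3 were lower and 1 higher, no more often than among all genes. Gdnf, which draws the ureteric bud, fell by 0.52 ± 0.13 on the log2 scale (adjusted p = 0.00212), but was not called without library 1 (-0.39, adjusted p = 0.0926).

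Signals to and from neighbouring cells changed in both directions, where 9.13% of all genes tested were higher and 11.3% lower. Of 13 BMP and TGF-beta genes 5 were higher and 3 lower. Bmp4 was at 30.2, 57.3 and 46.7 CPM in rich cells, against 18.7, 20.04 and 13.7 CPM in the lowest 50% (1.31 ± 0.16, adjusted p = 3.22e-10, matched 0.68). Tgfbi, a matrix protein induced by TGF-beta, was at 464, 698 and 575 CPM, against 266, 402 and 314 CPM (0.80 ± 0.05, adjusted p = 1.53e-25, matched 0.60). Neither gene overlapped between the groups. Bmper, which binds BMPs outside the cell, fell by 0.84 ± 0.18 on the log2 scale and was not called without library 3 (-0.54, adjusted p = 0.0523). Of 10 Notch pathway genes 5 were higher and 1 lower, and of 8 tested against matched cells 4 were higher. The target genes Hes1 (0.60 ± 0.04, matched 0.34), Hey1 (0.69 ± 0.13, matched 0.70) and Heyl (0.76 ± 0.13, matched 0.69) were among them. Hes1 and Hey1 were named after their values were seen.

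In the FGF and ERK list 2 of 18 genes were higher and 3 lower, shares near the 9.13% and 11.3% of all genes tested. The phosphatase Dusp6 was higher by 0.70 ± 0.08, and the feedback inhibitor Spry1 fell by 0.91 ± 0.18 on the log2 scale, at 11.9, 20.9 and 23.4 CPM in rich cells, against 28.7, 41.7 and 33.7 CPM in the lowest 50%. Of 8 Wnt targets 2 were lower, Ccnd1 among them, and 6 did not pass.

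Guidance and migration genes were more often higher than lower, with 10 of 19 higher and 1 lower (median 0.38), and 4 of 15 higher against matched cells. Of all genes tested 9.13% were higher and 11.3% lower, and 2.20% were higher against matched cells. The ephrin receptor Epha4 was at 45.3, 50.1 and 44.999 CPM in rich cells, against 18.4, 23.5 and 21.9 CPM in the lowest 50% (1.12 ± 0.14, adjusted p = 1.86e-09, matched 0.62). The ephrin Efnb2 was at 14.3, 15.5 and 11.2 CPM, against 4.77, 6.24 and 3.77 CPM (1.46 ± 0.28, matched 1.65). Both were apart in every library. Nrp1, a receptor of semaphorins and Vegf named here after its values were seen, averaged 294 ± 41.6 CPM in rich cells and 194 ± 30.97 CPM in the lowest 50% (0.58 ± 0.06, matched 0.32). Ackr3, a scavenger of the chemokine Cxcl12, differed more between libraries than between groups, at 19.1, 79.2 and 12.1 CPM in rich cells and 12.5, 32.8 and 4.58 CPM in the lowest 50% (1.09 ± 0.17, not called against matched cells, 0.59). Sema3d was higher by 0.91 ± 0.17, at 50.8, 35.5 and 23.4 CPM in rich cells, against 17.8, 19.3 and 21.4 CPM, but was not called without library 1 (0.49, adjusted p = 0.107).

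Dcx belongs to the genes of neuronal migration and microtubules, a list that went both ways. Of the 18 listed genes tested, Dcx not among them, 6 were higher and 3 lower (median 0.16), 1 was higher without library 1 or without library 3, and 0 of 14 were higher against matched cells in edgeR's test, with 2 at an unadjusted p under 0.05. Tubb2b, a neuronal beta tubulin, was higher by 0.40 ± 0.08 (matched 0.22, not called) and the nuclear distribution gene Nde1 fell by 0.60 ± 0.11 on the log2 scale (matched -0.27, not called). Of the paralogs of the 4 ranking genes, Fbln1 alone among the 5 tested was called and fell by 0.62 ± 0.12 on the log2 scale (matched -0.35, not called). Integrins and matrix genes were called in 5 of 25 cases, 3 higher with Itga4 and 2 lower, a share near the 20.4% of all genes tested. The mesenchymal genes gave 3 higher of 8, Zeb2, Zeb1 (0.51 ± 0.10) and Vim (0.45 ± 0.07). The median of this list was -0.05, and 0 were lower. Against matched cells 2 of 7 were higher, and among the cells with the lowest cycle shares 1 of 7. The shares of all genes tested that were higher are 9.13%, 2.20% and 2.49% in these 3 comparisons. Of the 6 epithelial genes tested 0 were called by edgeR, with 0 at an unadjusted p under 0.05 and 0 by DESeq2.

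Of 19 glycolysis genes 13 were lower and 6 did not pass (median -0.31), and 5 of 17 were lower against matched cells. Ldha, which makes lactate, was at 464, 679 and 520.1 CPM in rich cells, against 873, 1196 and 957 CPM in the lowest 50% (-0.89 ± 0.04, adjusted p = 1.24e-32, matched -0.56). Tpi1, an enzyme of the middle of glycolysis, was at 284, 359.6 and 284 CPM, against 374, 539 and 438 CPM (-0.56 ± 0.05, matched -0.47). Both were below the lowest 50% within every library, and across libraries as well. Of 44 oxidative phosphorylation genes 23 were lower, 2 higher and 19 did not pass (median -0.15), 14 were lower without library 1, and 7 were lower against matched cells. Of 22 hypoxia response genes 8 were lower, Ldha and Tpi1 included, and 2 higher. Among all genes tested 11.3% were lower and 9.13% higher, and 2.31% were lower against matched cells.

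Growth regulators of early development were lower where they were called. Mycn was at 24.6, 30.9 and 19.9 CPM in rich cells, against 47.2, 66.9 and 49.8 CPM in the lowest 50% (-1.13 ± 0.15, adjusted p = 2.15e-09, matched -1.14). The chromatin protein Hmga2 was at 182, 209 and 175 CPM, against 299, 339.8 and 292 CPM (-0.74 ± 0.06, adjusted p = 6.25e-17, matched -0.56). The groups did not overlap for either gene. With Hmga1 they made 3 lower of 7 tested in the Lin28 and Igf2bp list, and the other 4 did not pass. Rdh10, which starts retinoic acid synthesis, was at 58.8, 73.7 and 54.5 CPM in rich cells, against 98.4, 143 and 105 CPM in the lowest 50% (-0.90 ± 0.10, adjusted p = 6.87e-12, matched -0.85). Of 9 retinoid genes 2 were higher and 2 lower, beside 9.13% and 11.3% of all genes tested.

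**Figure D5:**
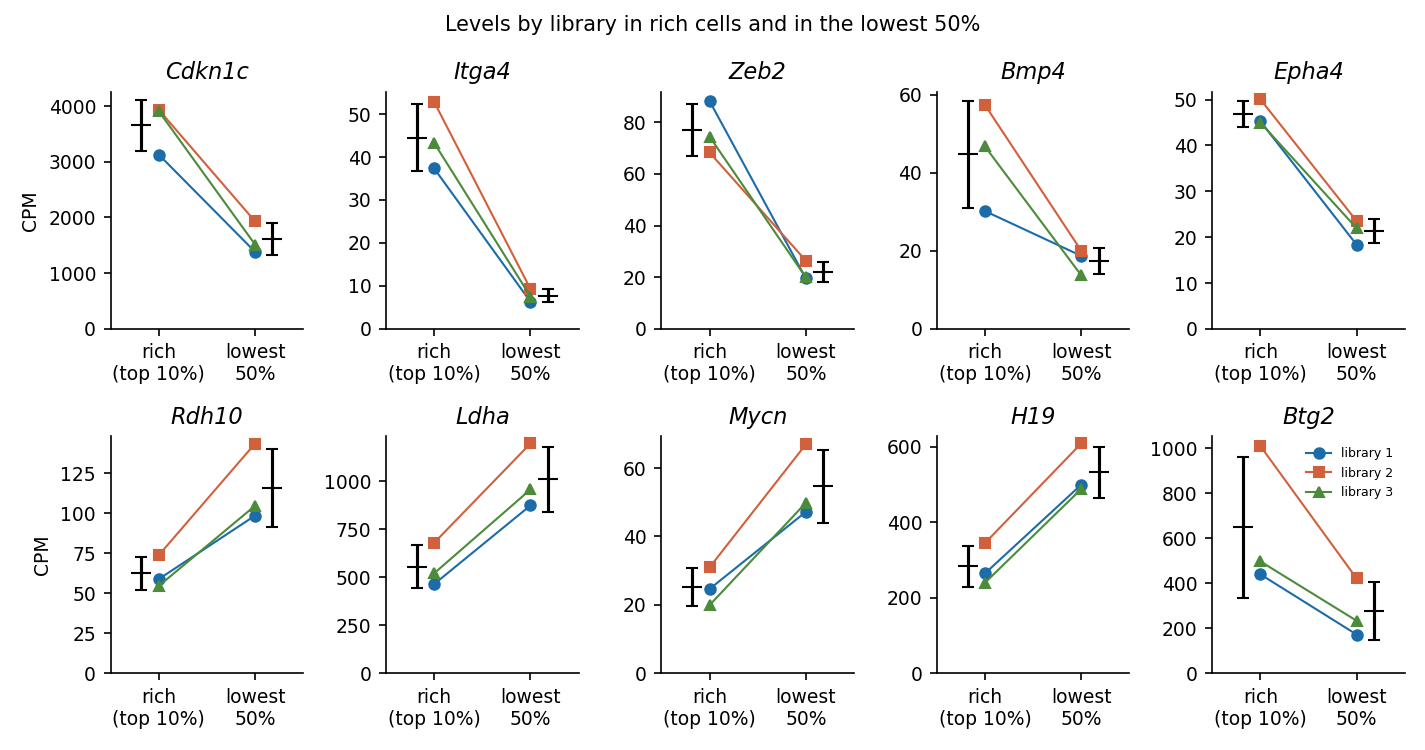
Levels (CPM, axes from 0) of 10 genes in rich cells (left) and in the lowest 50% (right) of each panel. Each line joins the values of a library, and bars give the mean and SD of 3 libraries. Cdkn1c, Itga4, Zeb2, Bmp4, Epha4 and Btg2 are higher in rich cells in each library, and Rdh10, Ldha, Mycn and H19 are lower.

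Immediate early genes, which respond to growth signals and to the dissociation of tissue, were higher. Of 26 tested 15 were higher and 2 lower (median 0.46), and 12 of 22 were higher against matched cells. Summed they took 0.582%, 1.19% and 0.688% of UMIs in rich cells, against 0.458%, 0.811% and 0.564% in the lowest 50%. Within each library the rich cells were above, but the libraries overlapped between the groups. The antiproliferative gene Btg2 was at 439, 1009.5 and 497 CPM in rich cells, against 172, 421 and 233 CPM in the lowest 50% (1.22 ± 0.05, adjusted p = 2.96e-35, matched 0.87). The mRNA-destabilising Zfp36 was higher by 1.11 ± 0.11, and Junb by 0.81 ± 0.05. The nuclear receptor Nr4a1 was higher too, at 19.1, 43.7 and 26.8 CPM in rich cells, against 9.41, 20.5 and 14.1 CPM in the lowest 50% (matched 0.87). The heat shock gene Hspa1a fell by 0.63 ± 0.23 on the log2 scale (adjusted p = 0.0408) and was not called against matched cells (-0.23) or without library 1 (-0.53, adjusted p = 0.13) or library 2 (-0.27, adjusted p = 0.637). Mitochondrial shares, given above, were also higher in rich cells than in the lowest 50% of each library. The part of dissociation and of RNA quality in these values was not tested.

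Markers of other cell types were counted in both groups. Immune markers summed to 6.92 to 11.9 CPM over the rich cells of the 3 libraries, with Ptprc and Cx3cr1 at 0, against 4.36 to 37.6 CPM in the lowest 50%. Endothelial markers summed to 15.6 to 24.6 CPM with 5 of 10 at 0 (Cdh5, Kdr, Tek, Tie1 and Esam), against 27.5 to 54.8 CPM. Neural and neural crest markers summed to 45.3 to 79.2 CPM, against 48.2 to 68.0 CPM, and Elavl3, Sox10, Foxd3, Th and Dbh were among those at 0 in the rich cells that were chosen on Dcx. Stromal markers summed to 136 to 189 CPM, against 109 to 146 CPM, with Pdgfra at 0 and 3 of 8 tested higher. Of these, Dcn, a proteoglycan of connective tissue, was at 12.7, 26.4 and 21.6 CPM in rich cells, against 7.63, 10.6 and 7.81 CPM (1.18 ± 0.22, matched 1.12), and Col1a2 was higher by 1.20 ± 0.27 (matched 0.81, not called). Against matched cells 1 of 4 stromal markers tested was higher. Pooled over libraries, Col1a1 (7.12 against 8.10 CPM), Postn (1.14 against 1.45), Acta2 (1.42 against 1.81) and Pdgfra were lower in rich cells, and the remaining stromal markers were higher. Ureteric markers summed to 58.0 to 91.9 CPM, against 58.8 to 85.8 CPM, erythroid markers to 0 to 3.18 CPM, against 0.290 to 5.01 CPM, and muscle markers to 346 to 464 CPM, against 333 to 442 CPM, with Tnnt2 the 1 of 2 tested that was higher. Single genes made up much of some sums. In rich cells Des gave 1250 of 1389 muscle UMIs and Hoxb7 223 of 257 ureteric UMIs. Elavl4 gave 180 of 215 neural UMIs and Meis1 332 of 570 stromal UMIs. In the lowest 50% the 4 genes gave 8090 of 8348, 1383 of 1574, 1050 of 1277 and 1773 of 2774 UMIs. The part of other cells in the rich cells' values was not tested. Nephron progenitor markers summed to 1535 to 2207 CPM in rich cells, against 1282 to 1901 CPM in the lowest 50%, with Six2 itself among these 8 markers. Of the 7 tested 4 were higher and 1 lower, and against matched cells 1 was higher and 0 lower. Pooled over libraries, Cited1 (188 against 196 CPM), Meox1 (80.6 against 93.4) and Eya1 (231 against 256) were lower in rich cells. Crym was at 441 against 297 CPM, and the remaining markers were higher as well.

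Cell barcodes, which carry no biology, were compared as a check. Rich cells made up 8.98% of gate cells with at most 6 A or T bases in the barcode (95% Clopper-Pearson interval 6.65% to 11.8%), 10.6% of those with 7 to 9 (9.36% to 12.04%) and 7.51% of those with 10 or more (5.09% to 10.6%). The intervals, which cover counting error only, overlapped.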

How the data were processed

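The file holds deposited UMI counts for every gene in every cell. Cell Ranger 1.3.1 and the build mm10 are named in the submitters' processing notes. The matrix joins 3 libraries, marked by a barcode suffix, which is used as the library's name since the labels do not pair suffixes with samples. The 7898 cells passing the filters held 50894264, 35268524 and 35816105 UMIs. Pairs of libraries differed far beyond sampling noise (chi-square per degree of freedom 60.7 to 343), so none was a copy.

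Counts of rich cells and of the lowest 50% were summed per library (1258915, 1098564 and 1155586 UMIs in rich cells, against 8391428, 6887395 and 7427289) and tested across all genes kept by filterByExpr with edgeR 4.0.16 (R 4.3.3; quasi-likelihood test, TMM scaling, library as a block, two-sided, Benjamini-Hochberg adjusted p under 0.05). Both sums of a library come from the same tube, which is what pairs them. The 8 genes of the rule were left out of the tested genes. CPM values are sums over all UMIs, with no length correction. The sort excluded doublets, per the labels. Scrublet-type scores (scanpy 1.11.5) marked the highest 6% of cells, which were kept and left out in an alternative. Coordinates are GENCODE vM21 (GRCm38, the build named mm10).

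The members, the 26 gene lists and 10 marker lists, and the rule for named genes were chosen with earlier results of these data known. The rule takes the 12 largest increases and 12 largest decreases among genes called, alike in direction in 3 libraries and at 20 CPM or more in the higher group, without ribosomal and mitochondrial genes, and up to 4 called members per list. Other genes named were chosen after their values were seen: Cited1, Wt1, Mest, Peg3, Igf2, Hes1, Hey1, Nrp1, Hspa1a, and the markers Dcn and Col1a2. The early nephron and podocyte marker list is not reported here. Alternatives covered DESeq2 1.42.0, RLE scaling, no count filter, leaving out each library, no block, top 5% and top 20%, all other gate cells, doublet scores, a stricter gate, barcodes, thinning, the score without each gene and the 2 added comparisons. Only part of these was run for the rankings by 3 genes. This part was DESeq2, no count filter, leaving out each library, no block, doublet scores, the stricter gate, barcodes and thinning of each cell. Matching on UMIs was also added there. RLE scaling, top 5% and top 20%, all other gate cells, thinned sums and the cells with the lowest cycle shares were not run for these rankings. The test was checked on simulated data.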

Additional observations from a re-analysis of the deposited data

How the results depend on the processing

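The calls for the 4 ranking genes, each tested in cells ranked by the other 3, were the same under all alternatives run for them. Other cut-offs for rich cells, all other gate cells and the cells with the lowest cycle shares were not among these alternatives. The differences of the 4 genes were smallest against cells matched on total UMIs (0.82 to 1.06). The count of genes called (2274, with 1016 higher and 1258 lower) depended on the processing. It was 850 with DESeq2 (331 higher, 519 lower), 1418 with the top 5% as rich cells (622 and 796), 1258 with 6 further commitment and epithelial genes at 0 in the gate (523 and 735), 666 in cells thinned to 5000 UMIs (299 and 367) and 1307 with sums of the lowest 50% thinned to the rich cells' totals (545 and 762). Against all other gate cells 647 genes were higher. It was 402 against matched cells (196 and 206) and 416 in the 50% of gate cells with the lowest cycle shares (242 and 174); both use fewer cells, and the 2 comparisons were added after seeing the data. Without 1 library it ranged from 1495 to 2065, with 608 to 921 higher and 887 to 1144 lower. Without the block that pairs the 2 sums of a tube, 471 genes were called (216 higher, 255 lower). C2cd4b, Hist1h2ap and Hist1h1b, 15 of 15 immediate early genes and all 25 oxidative phosphorylation genes were then not called, nor were Slc40a1, Ifitm1, Heyl, Hes1, Hey1, Dusp6, Mest, Hoxa11, Ackr3, Bmper, Vim, Gdnf, Tmem100, Fbln1, Tubb2b, Sema3d, Hmga1, Hspa1a, H2-DMb1, H2-D1, Hmox1 and Ftl1. The adjusted p of the ranking genes was highest in that fit, at 0.00213 for Stc1, 0.00784 for Colec12, 0.00568 for Efemp1 and 0.00964 for Dcx.

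Of 2016 values of the 98 genes that the rule names, over 21 alternatives, 1712 kept direction and call. The remaining values lost the call or turned sign. In cells thinned to 5000 UMIs the calls of Lfng, Lmcd1, Heyl, Hey1, Spry1, Efnb2, Ifitm1, Hoxa11, Nde1, Zeb1, Dcn, Mcm10, Ccdc85a, Gdnf, Tmem100, Tubb2b, Bmper, Hspa1a, H2-DMb1 and Ftl1 were among those lost. Among the 50% with the lowest cycle shares the lost calls included Efnb2, Hoxa11, Vim, Zeb1, Igf2, Ackr3, Sema3d, Nde1, Gdnf, Fbln1, Tubb2b, Kif20b, Hmga1, Hspa1a, H2-DMb1 and Ftl1. Beside the genes named above, Gdnf, Zeb1, Sema3d, Hmga1 and Ftl1 were not called against matched cells. Hmga1 turned to 0.075 in cells thinned to 5000 UMIs. Hspa1a turned to 0.89 in cells with the lowest cycle shares. Hmox1, at 6.35, 4.55 and 6.92 CPM in rich cells and 5.01, 6.97 and 28.5 CPM in the lowest 50%, fell by 1.14 ± 0.31 on the log2 scale and turned to 0.17 with 6 further genes at 0, 0.15 in thinned cells, 0.30 with the score without Dcx and 1.31 in cells with the lowest cycle shares; the cause was not tested. It was not called without library 3 (-0.12, adjusted p = 0.912). Of the 98 genes, 29 were unchanged in direction and call under all alternatives in which they were tested.

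Depth sets the limits. A rich cell was placed by a median of 9 UMIs, and the rich sums held 1098564 to 1258915 UMIs, so a gene at 1 CPM rests on about 1 UMI per library.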

Other observations

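Some gene lists that follow little of the above are given as values, beside 9.13% higher and 11.3% lower among all genes tested. Of 6 class II antigen genes 1 was higher in rich cells, H2-DMb1, at 7.94, 10.01 and 6.06 CPM in rich cells, against 2.15, 3.48 and 3.90 CPM in the lowest 50% (1.32 ± 0.37, adjusted p = 0.00541). It was not called without library 1 (1.07, adjusted p = 0.0932). Of 9 interferon genes 1 was higher, Ifitm1, and 1 lower, H2-D1, at 2.38, 1.82 and 0 CPM in rich cells, against 4.53, 4.79 and 5.65 CPM in the lowest 50%, which was not called without library 3 (-1.14, adjusted p = 0.253). Of 9 iron handling genes 2 were higher, the exporter Slc40a1 and the ferritin chain Ftl1 (0.09 ± 0.02), and 1 was lower, Hmox1, which degrades haem. Slc40a1 was at 33.4, 58.3 and 32.9 CPM in rich cells, against 16.6, 28.2 and 23.6 CPM in the lowest 50% (matched 0.72).

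The middle 40% of the gate, which was not part of the main comparison, lay between the 2 groups for the leading genes. Itga4 was at 17.1, 25.9 and 19.6 CPM there and Zeb2 at 33.6, 50.4 and 46.98 CPM, in libraries 1, 2 and 3. Mycn was at 34.4, 56.8 and 39.9 CPM and Ldha at 671, 861 and 697 CPM. Each value lies between those of the rich cells and of the lowest 50% of the same library.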
